A study of Mus musculus with 4 samples.

Results

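The Tgf-beta ligands, receptors and Smads are 10 genes chosen by name: the ligands Tgfb1, Tgfb2 and Tgfb3, the receptors Tgfbr1, Tgfbr2 and Tgfbr3, and the Smads Smad2, Smad3, Smad4 and Smad7. All 10 were found among the 21090 genes of a table of RNA sequencing (RNA-seq) values. The table covers 4 lines of cultured mouse mammary tumor cells, each sequenced once. The parental line came from a primary tumor of a mouse with lung metastasis, which carried Pik3ca H1047R and Trp53 R270H with Cre driven by the MMTV promoter. By the study's account, which names a single starting line for the knockouts, all 4 lines share these alleles. The control group held this parental line and a vector control line (n = 2). The knockouts (n = 2) were a line edited in exon 3 of S100a4, which encodes a small calcium-binding protein, and another edited in its exon 2. The edited lines were infected with a lentivirus carrying Cas9 and a guide RNA and selected on puromycin, and whether they are clones or pools is not stated. By their titles, 3 libraries come from cells called 307 and the exon 2 knockout from cells called 308, so in that library any difference of starting cells cannot be told apart from the edit.

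Tgf-beta ligands are secreted in a latent complex and are released at the cell surface and in the matrix. An active ligand brings the kinase receptors Tgfbr2 and Tgfbr1 together, and Tgfbr1 then phosphorylates Smad2 and Smad3, which enter the nucleus with Smad4. Smad7, itself switched on by the pathway, turns the receptors off. In mammary epithelium the pathway restrains growth, and in carcinoma cells it can drive the epithelial to mesenchymal transition.

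Tgfb2 and Tgfbr1 were the ligand and the receptor with lower values in both knockouts, and Tgfb1 was the ligand with higher values in both, so their promoters are shown for reference. Each stretch is the 250 bases before the start of the gene, read 5′ to 3′ on the strand of the gene, from RefSeq (GRCm38.p6). Tgfb2 lies at chr1:186705990-186706239 (minus strand), Tgfbr1 at chr4:47352972-47353221 (plus strand) and Tgfb1 at chr7:25686752-25687001 (plus strand). Capitals mark matches, on either strand, to 5 motifs: the core of the Smad binding element (CAGAC), the GC box (GGGCGG), the TATA box (TATAAA), an E-box (CACGTG) and the CCAAT box.
Tgfb2: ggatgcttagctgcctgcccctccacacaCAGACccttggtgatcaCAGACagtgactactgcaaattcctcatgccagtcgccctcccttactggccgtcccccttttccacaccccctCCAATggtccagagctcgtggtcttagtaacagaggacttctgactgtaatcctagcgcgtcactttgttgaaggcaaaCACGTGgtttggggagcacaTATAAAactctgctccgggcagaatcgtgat
Tgfbr1: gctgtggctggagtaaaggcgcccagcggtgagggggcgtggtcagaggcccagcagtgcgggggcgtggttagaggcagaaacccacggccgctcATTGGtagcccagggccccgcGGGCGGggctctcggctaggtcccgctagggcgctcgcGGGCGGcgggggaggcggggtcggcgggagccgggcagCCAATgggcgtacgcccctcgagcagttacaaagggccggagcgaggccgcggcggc
Tgfb1: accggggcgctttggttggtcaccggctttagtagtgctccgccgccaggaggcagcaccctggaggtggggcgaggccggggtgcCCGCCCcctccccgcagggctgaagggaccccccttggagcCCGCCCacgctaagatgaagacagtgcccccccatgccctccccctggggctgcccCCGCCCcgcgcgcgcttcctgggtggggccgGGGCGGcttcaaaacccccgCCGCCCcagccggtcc
The Tgfb2 stretch held 2 matches to the Smad element core and 1 each to the TATA box, the E-box and the CCAAT box, and none to the GC box. The Tgfbr1 stretch held 2 matches to the GC box and 2 to the CCAAT box, and the Tgfb1 stretch held 5 matches to the GC box and none to the other motifs. No match overlapped another. Among 32851 mouse promoters of the same length, 42.2% held the Smad element core, 32.7% the GC box, 12.4% the TATA box, 6.02% the E-box and 33.8% the CCAAT box, so of the matches in the Tgfb2 stretch the E-box is the least common. GC content was 53.6% for the Tgfb2 stretch, 74.8% for Tgfbr1 and 75.2% for Tgfb1. A match is a run of letters only.

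Levels are in RPKM, which divides the reads of a gene by its length and by the total of its library. The totals behind RPKM ran from 22472024 to 31235456 per library, and 64.9 to 66.9% of them fell in genes. Intervals on RPKM are 95% Wilson intervals from the reads and cover counting error only. S100a4, the targeted gene, was at 3576 RPKM in parental cells, 4741 in vector cells, 1136 after the exon 3 edit and 1105 after the exon 2 edit, which is 26.9% of the control mean in the knockouts. On the log2(RPKM + 1) scale its difference was -1.88 (SE 0.311, adjusted p = 0.0731, limma). The RNA level does not measure the knockout itself. For the knockout lines the study reported truncating mutations in most S100a4 transcripts and loss of the protein by Western blot. The cells are labelled as mammary tumor cells. Of 10 epithelial markers, Epcam, Cdh1, Krt5, Krt14, Krt19, Cldn3, Cldn4 and Esrp1 were below a mean RPKM of 1, and Krt8 and Krt18 were above it, whereas all 10 mesenchymal markers were above it.

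All 10 Tgf-beta genes reached a mean of 1 RPKM and were tested among 10871 genes on the log2(RPKM + 1) scale, which understates the change of low genes. Tgfbr1 passed this minimum through the controls alone, which favours a lower value in the knockouts. After adjustment over all tested genes, 0 of the 10 passed 0.05 in limma, where 2 of all tested genes (0.0184%) did. At an unadjusted p under 0.05, 1 of the 10 was lower in the knockouts (Tgfb2), against 13.8% of all tested genes, and 0 were higher, against 5.32%. limma voom on the reads recovered from the table also called 0 of the 10. With 2 libraries against 2, the smallest exact permutation p (two-sided) for a single gene is 0.33, so none can pass 0.05 in that test.

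Tgfb2, Tgfbr1 and Smad4 were lower in both knockouts than in both controls (3 of 10, against 31.2% of all tested genes). Tgfb1 was higher in both (1 of 10, against 21.9%), and the groups overlapped for the other 6. Only Tgfbr1 was at least 2-fold lower in each of the 4 pairs of a knockout and a control (1 of 10, against 3.3%). Its entry through the controls alone favours such an outcome. At least 2-fold higher were 0 of 10, against 0.423%. The median difference of the 10 genes was -0.2 on the log2 scale, beside -0.08 for all tested genes. The study had named Tgfb2 and Tgfbr1 from these same libraries, so their direction here is not independent evidence. In bulk RNA, fewer cells expressing a gene and less of its RNA per cell cannot be told apart.

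**Figure D1:**
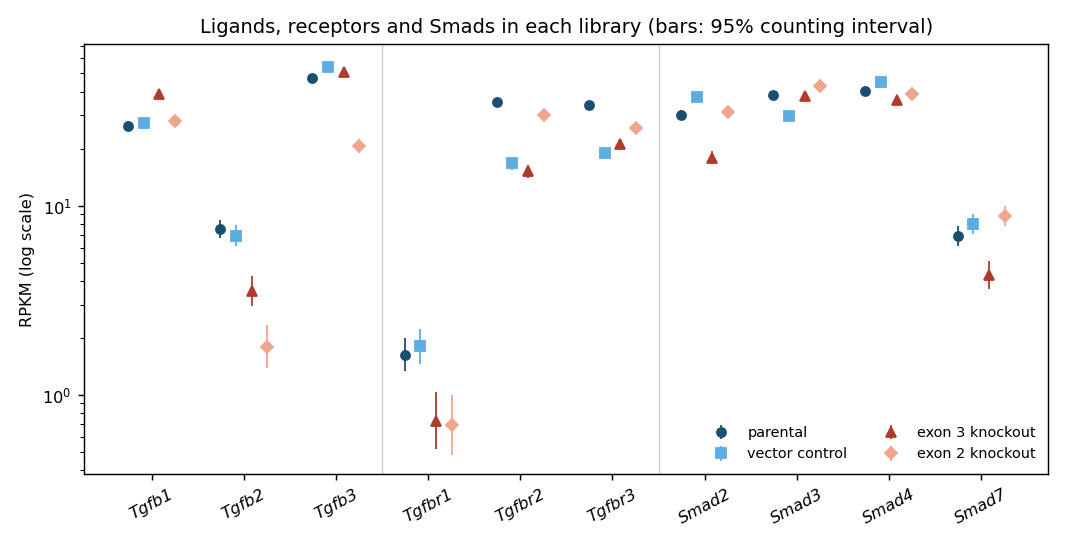
RPKM (log scale) of the 3 ligands, 3 receptors and 4 Smads in each of the 4 libraries, with bars for the 95% counting interval. The knockout points of Tgfb2 and Tgfbr1 lie below both control points without touching their intervals, while for Tgfbr2 the parental line and the exon 2 knockout sit together above the vector control and the exon 3 knockout.

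Among the ligands, Tgfb2, the isoform with a prominent part in heart, palate and eye development, had the largest difference. It was at 7.51 RPKM in parental cells (314 reads, 6.72 to 8.39), 6.94 in vector cells (236 reads, 6.11 to 7.88), 3.53 after the exon 3 edit (111 reads, 2.93 to 4.25) and 1.79 after the exon 2 edit (54 reads, 1.38 to 2.34). Both knockouts lay below both controls, beyond counting error, and the knockouts also stood apart from each other, with the exon 3 knockout 1.97-fold above the exon 2 knockout. The mean was 7.22 ± 0.401 RPKM in controls and 2.66 ± 1.23 in knockouts (SD, n = 2 each), or 36.9% of the control level. The log2 difference was -1.21 (SE 0.37, unadjusted p = 0.00733, adjusted p = 0.148, limma), which ranked 513 of 10871 by size. The closest pair, the exon 3 knockout against the vector control, still differed by 1.97-fold.

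Tgfb1, the isoform best known in tumors and in immune restraint, was at 26.3 RPKM in parental cells (965 reads), 27.3 in vector cells (812 reads), 39.0 after the exon 3 edit (1074 reads) and 28.1 after the exon 2 edit (742 reads). The exon 3 knockout stood above the other three, whereas the exon 2 interval (26.2 to 30.2) covered the vector control value. The log2 difference was 0.3 (SE 0.312, adjusted p = 0.616, limma), and the smallest fold over the 4 pairs was 1.03.

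Tgfb3, the most abundant of the ligands in controls, was at 47.2 RPKM in parental cells (1827 reads), 53.7 in vector cells (1689 reads), 50.5 after the exon 3 edit (1470 reads) and 20.6 after the exon 2 edit (574 reads). The exon 3 knockout lay between the controls, and the exon 2 knockout alone was low, 2.45-fold below the exon 3 knockout. The log2 difference between groups was -0.62 (SE 0.396, adjusted p = 0.405, limma). Without the exon 2 knockout it was 0.01.

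Summed over the 3 isoforms, ligand RPKM was 81.1 in parental cells, 87.9 in vector cells, 93.1 after the exon 3 edit and 50.6 after the exon 2 edit, so the exon 2 knockout alone was below the controls. Tgfb2 made up 9.26% of that sum in parental cells, 7.9% in vector cells, 3.79% after the exon 3 edit and 3.55% after the exon 2 edit. Its share was therefore alike in the knockouts although its RPKM was not. Tgfb1 made up 32.5% and 31.0% in the parental and vector control lines, 41.9% after the exon 3 edit and 55.7% after the exon 2 edit. Tgfb3 held the most in the parental line (58.2%), the vector control (61.1%) and the exon 3 knockout (54.3%), but 40.8% in the exon 2 knockout, where Tgfb1 held more.

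**Figure D2:**
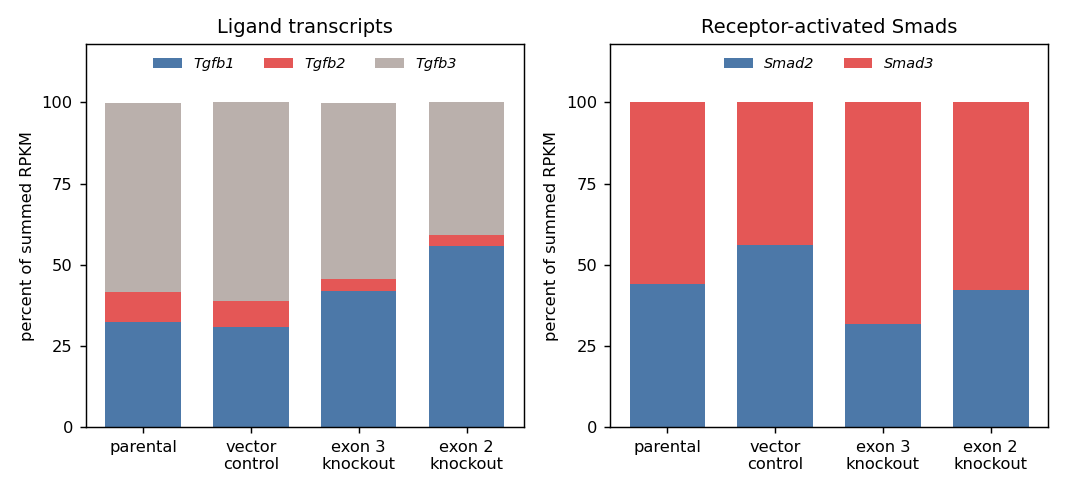
Percent of summed RPKM taken by each of the 3 ligands (left) and by Smad2 and Smad3 (right) in the 4 libraries, as stacked bars. The Tgfb2 share is 7.9 to 9.26% in the controls and 3.55 to 3.79% in the knockouts, and the Smad2 share runs from 31.9% in the exon 3 knockout to 56.0% in the vector control.

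Among the receptors, Tgfbr1, the type I kinase that phosphorylates the Smads, had the lowest level of all 10 genes. It was at 1.63 RPKM in parental cells (95 reads, 1.33 to 1.99), 1.8 in vector cells (85 reads, 1.45 to 2.22), 0.731 after the exon 3 edit (32 reads, 0.518 to 1.03) and 0.692 after the exon 2 edit (29 reads, 0.482 to 0.994). The knockouts were alike and both lay below the controls, with intervals that did not meet. The mean was 1.71 ± 0.116 RPKM in controls and 0.712 ± 0.0276 in knockouts (SD, n = 2 each), or 41.5%. The smallest fold over the 4 pairs was 2.23. On the log2(RPKM + 1) scale the difference was -0.66 (SE 0.381, adjusted p = 0.358, limma), and by limma voom on the recovered reads it was -1.25 (adjusted p = 0.256). On the log2(RPKM + 1) scale after correction for GC content and length it was -0.08 (adjusted p = 0.938, limma). The length behind its RPKM was 1864 bases, longer than its annotated coding length of 1512, so its level beside other genes depends on the gene model used. The length cancels in ratios between libraries, but which reads were counted also rests on that model, which is not given.

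Tgfbr2, the type II kinase that binds ligand first, was at 35.2 RPKM in parental cells (1954 reads), 16.7 in vector cells (754 reads), 15.2 after the exon 3 edit (634 reads) and 30.0 after the exon 2 edit (1199 reads). High and low values crossed the groups: the parental line was 2.11-fold above the vector control, and the exon 2 knockout 1.98-fold above the exon 3 knockout. The log2 difference between groups was -0.18 (SE 0.42, adjusted p = 0.843, limma), and it was 0.34 without the parental line and 0.29 without the exon 3 knockout.

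Tgfbr3, or betaglycan, a coreceptor that presents Tgfb2 to the kinases, was at 34.1 RPKM in parental cells (2718 reads), 18.9 in vector cells (1225 reads), 21.2 after the exon 3 edit (1273 reads) and 25.7 after the exon 2 edit (1477 reads). Both knockouts lay between the controls, which were 1.8-fold apart. The log2 difference was -0.12 (SE 0.35, adjusted p = 0.881, limma), and it turned to 0.29 without the parental line, 0.02 without the exon 3 knockout and 0.05 after correction for GC content and length.

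The receptors were thus unequal in level. Tgfbr2 RPKM was 21.6 times that of Tgfbr1 in parental cells, 9.29 times in vector cells, 20.8 times after the exon 3 edit and 43.3 times after the exon 2 edit. The parental line and the exon 3 knockout had nearly the same ratio, and the other control and the other knockout lay on either side.

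Among the Smads, the receptor-regulated Smad2 was at 30.1 RPKM in parental cells (1321 reads), 37.7 in vector cells (1343 reads), 17.9 after the exon 3 edit (589 reads) and 31.2 after the exon 2 edit (984 reads). The exon 3 knockout alone was low, and the exon 2 knockout lay between the controls. The log2 difference was -0.49 (SE 0.345, adjusted p = 0.446, limma), and it was -0.11 without the exon 3 knockout and -0.88 without the exon 2 knockout.

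Smad3, the other receptor-regulated Smad, was at 38.3 RPKM in parental cells (1668 reads), 29.6 in vector cells (1048 reads), 38.1 after the exon 3 edit (1246 reads) and 42.6 after the exon 2 edit (1335 reads). The vector control was the low library, and the parental line lay between the knockouts. The log2 difference was 0.25 (SE 0.306, adjusted p = 0.675, limma). Smad3 over Smad2 was 1.27 in parental cells, 0.787 in vector cells, 2.13 after the exon 3 edit and 1.37 after the exon 2 edit, so Smad2 exceeded Smad3 only in the vector control. Their sum was 68.5, 67.3, 56.0 and 73.8 RPKM in the same order.

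Smad4, the partner shared by all receptor-regulated Smads, varied least of the 10 genes across the libraries, at 40.2 RPKM in parental cells (2099 reads), 44.8 in vector cells (1902 reads), 36.2 after the exon 3 edit (1418 reads) and 38.9 after the exon 2 edit (1459 reads). Both knockouts were below both controls, by 1.04-fold in the closest pair. The exon 2 interval (36.9 to 40.9) covered the parental value. The log2 difference was -0.18 (SE 0.296, adjusted p = 0.768, limma).

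Smad7, the inhibitory Smad, was at 6.9 RPKM in parental cells (276 reads, 6.13 to 7.76), 8.02 in vector cells (261 reads, 7.11 to 9.06), 4.29 after the exon 3 edit (129 reads, 3.61 to 5.1) and 8.79 after the exon 2 edit (253 reads, 7.77 to 9.94). The exon 3 knockout was below both controls beyond counting error and 2.05-fold below the exon 2 knockout. The exon 2 value was above both controls, but its interval covered the vector control value. The log2 difference between groups was -0.23 (SE 0.378, adjusted p = 0.761, limma), and it was 0.21 without the exon 3 knockout and 0.08 after quantile normalization. Relative to the sum of Smad2 and Smad3, Smad7 was 10.1% in parental cells, 11.9% in vector cells, 7.66% after the exon 3 edit and 11.9% after the exon 2 edit.

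The 10 genes lie on 7 chromosomes (GRCm38, GENCODE M21). The ligand genes span chr7:25687002-25705077 (Tgfb1, plus strand), chr1:186622792-186705989 (Tgfb2, minus strand) and chr12:86056745-86079041 (Tgfb3, minus strand). The receptor genes span chr4:47353222-47414931 (Tgfbr1, plus strand), chr9:116084293-116175360 (Tgfbr2, minus strand) and chr5:107106570-107289629 (Tgfbr3, minus strand). Smad3 spans chr9:63646767-63757994 (minus strand), while Smad4 (chr18:73639009-73703780, minus strand), Smad7 (chr18:75367529-75395935, plus strand) and Smad2 (chr18:76241580-76310963, plus strand) share a chromosome. In the exon 2 knockout Smad4 was below both controls, Smad7 above both and Smad2 between them.

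Differences within a group were often as large as those between groups. The controls differ by the vector but by no edit of S100a4. Between them, 1 of the 10 genes (Tgfbr2) was at least 2-fold apart on the log2(RPKM + 1) scale, against 8.53% of all tested genes. Between the knockouts 1 of 10 (Tgfb3) was, against 4.99%. The gap within the controls exceeded the difference between groups for 3 of the 10 genes, the gap within the knockouts did so for 6, and at least 1 of these did so for 7. Over all tested genes these shares were 47.1%, 42.3% and 60.8%. For Tgfb2, Tgfbr1 and Smad4 neither gap did.

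**Figure D3:**
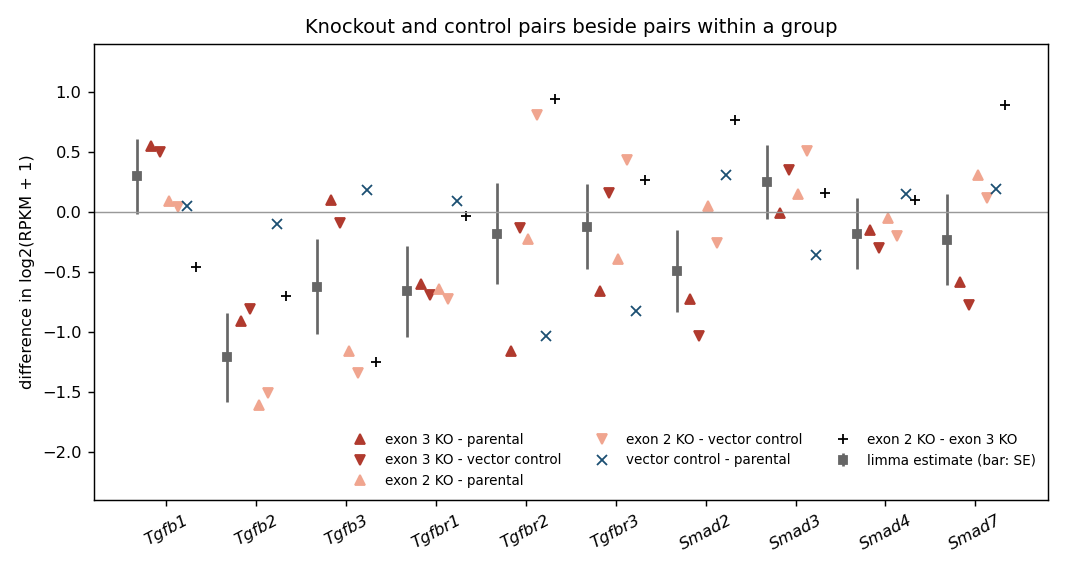
Difference in log2(RPKM + 1) for each Tgf-beta gene: the 4 pairs of a knockout and a control (triangles), the control pair (crosses), the knockout pair (plus signs) and the limma estimate with its SE (squares with bars). All 4 triangles lie below 0 for Tgfb2, Tgfbr1 and Smad4 and above 0 for Tgfb1, and the knockout pair of Tgfb3 is 1.25 apart.

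By mean RPKM in controls, the order was Tgfb3 (50.4), Smad4 (42.5), Smad3 (34.0), Smad2 (33.9), Tgfb1 (26.8), Tgfbr3 (26.5), Tgfbr2 (25.9), Smad7 (7.46), Tgfb2 (7.22) and Tgfbr1 (1.71). Smad3 and Smad2 overlapped in their libraries, as did neighbours from Tgfb1 to Tgfbr2 and the pair Smad7 and Tgfb2. In knockouts the order was Smad3 (40.4), Smad4 (37.5), Tgfb3 (35.6), Tgfb1 (33.6), Smad2 (24.5), Tgfbr3 (23.5), Tgfbr2 (22.6), Smad7 (6.54), Tgfb2 (2.66) and Tgfbr1 (0.712). There each of the first 7 overlapped its neighbour, and Smad7, Tgfb2 and Tgfbr1 followed without overlap. Tgfb2 and Smad7, side by side in controls, thus had values that did not overlap in the knockouts. Within the exon 3 knockout, though, their counting intervals overlapped (2.93 to 4.25 for Tgfb2 and 3.61 to 5.1 for Smad7).

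Base composition moved with the differences. Over 10781 tested genes with an annotated coding sequence, GC content and log2 difference had a correlation of 0.458 (across genes, which share the 4 libraries), and the median difference was -0.67 in the octile lowest in GC and 0.22 in the highest. Tgfbr1 had a coding GC content of 44.7%. The 698 genes within 1 percentage point had a median difference of -0.59, beside its own -0.66 on the log2(RPKM + 1) scale. That scale understates the change of a gene as low as Tgfbr1. Its difference was -1.16 with a pseudocount of 0.1 and -1.25 by limma voom. After each library was corrected for GC content and length on the log2(RPKM + 1) scale, the Tgfbr1 difference went to -0.08. The correction was not run on the other scales. Tgfb2 had a GC content of 51.5%, the 1145 genes of like GC had a median of -0.08, and its corrected difference was -1.14 (adjusted p = 0.313, limma). Tgfb1, with a GC content of 58.4%, went from 0.3 to 0.05, and Smad2, at 47.9%, from -0.49 to -0.17. The part of GC content in these differences was not tested beyond this correction.

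**Figure D4:**
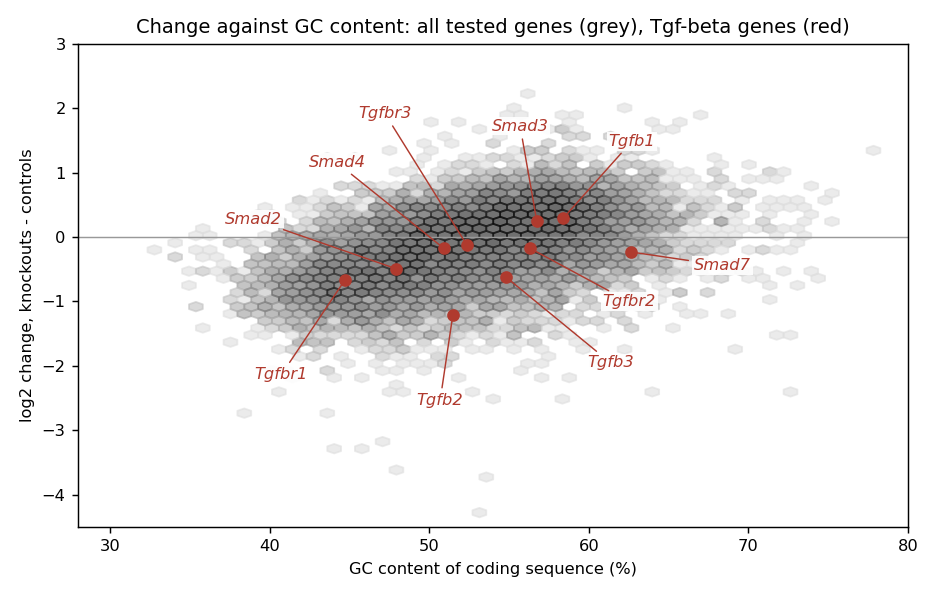
Difference between knockouts and controls (log2 scale) against the GC content of the coding sequence (%), for all tested genes as grey hexagons (darker for more genes) and the 10 Tgf-beta genes as red points. Tgfbr1 sits inside the cloud at its GC content of 44.7%, and Tgfb2 sits toward its lower side at 51.5%.

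The genes whose pattern over the 4 libraries was most like that of Tgfb2 were Gfpt1, Pde4dip and Lactb2, with a root mean square difference in centred log2(RPKM + 1) of 0.0368, 0.0632 and 0.075. Gfpt1, the entry enzyme of hexosamine synthesis, was at 29.7 RPKM in parental cells, 26.8 in vector cells, 14.7 after the exon 3 edit and 9.33 after the exon 2 edit. For Tgfbr1 they were 2610002M06Rik (0.025), Vwa5a (0.0269) and Zfp128 (0.0293). With 4 libraries, such likeness is a description only.

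Upstream of the receptors, genes of Tgf-beta latency and activation included the one pathway gene that passed the test. Of 18 listed genes 13 were tested. Bgn, a small proteoglycan that binds Tgf-beta, fell from 264 RPKM in parental cells and 375 in vector cells to 8.15 after the exon 3 edit and 28.1 after the exon 2 edit (log2 difference -4.27, SE 0.466, adjusted p = 0.0133, limma). Its difference stayed between -4.38 and -4.18, while its adjusted p lay between 0.0664 and 0.328, after median-ratio scaling, quantile normalization, no filter, GC and length correction and voom. Itgb8, the integrin chain that activates latent ligand together with Itgav, was at 2.79, 3.26, 0.61 and 0.831 RPKM in the same order (-1.23, adjusted p = 0.146, limma, and -0.63 after GC and length correction). Itgb8 passed the minimum mean of 1 RPKM through the controls alone, which favours a lower value in the knockouts. Itgav was at 59.1, 34.3, 16.8 and 19.7 RPKM (-1.26, adjusted p = 0.128, limma), with both knockouts below both controls, and it was -1.65 without the vector control (adjusted p = 0.00311), -0.88 without the parental line (adjusted p = 0.181) and -0.85 after GC and length correction. Ltbp2, a matrix protein related to the latent Tgf-beta binding proteins, was at 140, 35.2, 32.7 and 22.4 RPKM (-1.35, adjusted p = 0.205, limma), where the parental line stood apart: the difference was -2.33 without the vector control (adjusted p = 1.78e-07) and -0.37 without the parental line (adjusted p = 0.636). In the list 4 tested genes were lower and 1 higher at an unadjusted p under 0.05 (all tested genes: 13.8% and 5.32%), 4 were lower and 2 higher without overlap (all tested genes: 31.2% and 21.9%), and the median difference was 0.01. The study had named Bgn and Itgb8 from these libraries.

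Among coreceptors and regulators of the receptors, 16 of 16 genes were tested, 0 passed the adjusted test, 2 were lower (13.8% of all tested genes were) and 0 higher (5.32%) at an unadjusted p under 0.05, and the median difference was -0.2. In both knockouts 4 of the 16 were lower (31.2% of all tested genes) and 2 higher (21.9%). The largest differences were those of Wwp1 and Smurf2, ubiquitin ligases that act on the receptors with Smad7, and of Usp15, a deubiquitinase for Tgfbr1. Smurf2 was at 29.3, 23.7, 12.5 and 17.4 RPKM (parental line, vector control, exon 3 knockout, exon 2 knockout), Wwp1 at 8.93, 8.93, 4.23 and 5.17, and Usp15 at 18.7, 30.6, 10.6 and 17.1. All 3 were lower in both knockouts, with log2 differences of -0.8, -0.81 and -0.78 that became -0.34, -0.01 and -0.03 after correction for GC content and length. The median of the list became 0.22.

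Smad partners and repressors had a median difference of -0.42 over 16 tested of 17 genes, and 7 were lower (31.2% of all tested genes) and 1 higher (21.9%) in both knockouts. At an unadjusted p under 0.05, 4 were lower (13.8%) and 1 higher (5.32%), and 0 passed the adjusted test. Trim33, a ubiquitin ligase that binds Smad4 and Smad2, was at least 2-fold lower in all 4 pairs, with 10.1, 10.8, 3.71 and 3.56 RPKM in the same order (-1.3, adjusted p = 0.115, limma, and -0.85 after GC and length correction). Skil, a repressor of Smad complexes that the pathway also induces, was at 11.7, 18.8, 5.31 and 6.56 RPKM (-1.2, adjusted p = 0.138, limma). Its difference was -1.52 without the parental line (adjusted p = 0.0217), -0.88 without the vector control (adjusted p = 0.299) and -0.73 after GC and length correction. Ep300, an acetyltransferase recruited by Smads, was at 21, 10.9, 6.69 and 7.41 RPKM (-1.01, adjusted p = 0.191, limma). Its difference was -1.45 without the vector control (adjusted p = 0.0451), -0.56 without the parental line (adjusted p = 0.512) and -0.49 after GC and length correction (adjusted p = 0.502). Crebbp, in this list, had been named by the study from these libraries.

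The Smads of the Bmp branch gave 2 tested genes of 3. Smad5 was at 24.0 and 26.3 RPKM in the parental and vector control lines and at 8.65 and 11.5 in the exon 3 and exon 2 knockouts (-1.25, adjusted p = 0.116, limma, with 0.043 without the parental line and 0.11 without the vector control), at least 2-fold lower in all 4 pairs, and was a gene the study had named. Smad1 was at 18.5, 17.2, 13.8 and 14.7 RPKM (-0.31, adjusted p = 0.598, limma). Both were lower in both knockouts (31.2% of all tested genes were), and 1 (Smad5) was lower at an unadjusted p under 0.05 (13.8%). After GC and length correction the differences were -0.95 for Smad5 and -0.43 for Smad1.

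In the activin branch, which also signals through Smad2 and Smad3, 8 of 11 genes were tested, 2 were lower (13.8% of all tested genes) and 0 higher (5.32%) at an unadjusted p under 0.05, and the median difference was -0.33. In both knockouts 3 of the 8 were lower (31.2% of all tested genes) and 0 higher (21.9%). Gdf11, a ligand, was at 12.5, 16.3, 7.48 and 6.21 RPKM (-0.97, adjusted p = 0.173, limma), lower in both knockouts. Inhba, the activin A subunit, was at 4.87, 6.7, 2.54 and 3.21 RPKM (-0.8, adjusted p = 0.25, limma), also lower in both. Inhbb, the activin B subunit, was at 1.68, 0.223, 0.862 and 3.17 RPKM (0.62, adjusted p = 0.519, limma), and its groups overlapped.

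Of 25 genes that Tgf-beta is known to regulate in many cells, 25 were tested. At an unadjusted p under 0.05, 5 were lower in the knockouts (13.8% of all tested genes) and 0 higher (5.32%), and 0 passed the adjusted test. In both knockouts 7 were lower (31.2% of all tested genes) and 2 higher (21.9%), and the median difference was -0.35, which became 0.07 without the parental line. Beside Ltbp2 and Skil, the gene of this list with the next largest difference was Tgfbi, a matrix protein, at 28.3, 65.6, 19.7 and 18.3 RPKM (-1.14, adjusted p = 0.173, limma). Its difference was -1.74 without the parental line (adjusted p = 0.000728) and -0.55 without the vector control (adjusted p = 0.473). Collagen gene Col1a1 was at 670 RPKM in parental cells, 6.93 in vector cells, 54.3 after the exon 3 edit and 24.2 after the exon 2 edit (-0.97, SE 1.4, adjusted p = 0.725, limma), and without the parental line its difference was 2.23. The controls thus lay on either side of both knockouts for this target.

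**Figure D5:**
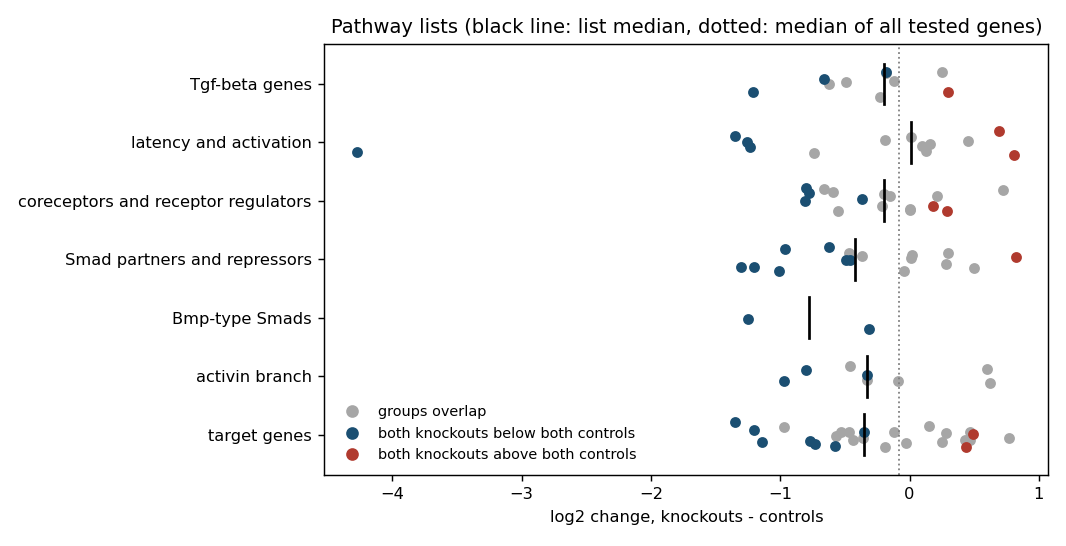
Log2 difference between knockouts and controls of each tested gene in the Tgf-beta gene lists, coloured by whether both knockouts lay below both controls (blue), above them (red) or overlapped (grey), with black lines for list medians and a dotted line for the median of all tested genes (-0.08). Bgn stands alone at -4.27, and the 3 Tgf-beta genes in blue are Tgfb2, Tgfbr1 and Smad4.

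Markers of cell state were also read in these libraries. All 10 mesenchymal markers were tested, 5 were lower (31.2% of all tested genes) and 0 higher (21.9%) in both knockouts, and 2 (Zeb2 and Snai2) were lower at an unadjusted p under 0.05 (13.8%). The summed level of the 10 was 2577 to 4732 RPKM in controls and 2268 to 2473 in knockouts. Its largest parental values were those of Vim (2418), Col1a2 (808), Col1a1 (670) and Fn1 (606). Of these only Vim was lower in both knockouts, and the groups overlapped for the others. Zeb2, a repressor of epithelial genes that the study had named, differed by -1.21 (adjusted p = 0.138, limma, and -0.67 after GC and length correction), and Snai2 by -0.77 (adjusted p = 0.23, limma). Snai1 is in the study's score for the epithelial to mesenchymal transition but was listed here with the target genes. Snai1 was higher in both knockouts, at 47.4 (exon 3) and 38.1 RPKM (exon 2) against 35.6 in parental and 27.2 in vector cells. Its difference was 0.44 (adjusted p = 0.454, limma) and 0.14 after GC and length correction. Epithelial markers summed to 34.7 to 130 RPKM in controls and 74.9 to 107 in knockouts, nearly all from Krt8 and Krt18. Krt8 was at 69.0, 27.5, 78.9 and 54.8 RPKM and Krt18 at 60.2, 6.1, 27.3 and 19.1, with the vector control lowest for both. Of 7 leukocyte markers only Cd68, a lysosomal protein, passed the expression minimum, at 4.92, 3.36, 11.5 and 13.2 RPKM (1.39, adjusted p = 0.105, limma, with 0.0132 without the parental line and 0.136 without the vector control), whereas Cd3e was listed at 0 and Ptprc and Itgam were near 0 in every library. None of 5 endothelial markers passed the minimum, with summed levels of 0.214 to 0.458 RPKM in controls and 0.28 to 0.368 in knockouts. The part of these markers in the Tgf-beta gene differences was not tested.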

How the data were processed

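RNA-seq was made from 4 cell lines with a stranded total RNA kit, per the labels, and the study's methods name a kit of the same maker. The authors deposited a single table of RPKM values, 1 column per line, on a linear scale. The submitters' processing notes name CASAVA 1.8, GSNAP and the build GRCm38. The counting rule and gene model are not given in the sources used here. Groups came from the sample titles, which give no batch and no replicate numbers, and each line gave 1 library, so p-values measure only the spread between these lines.

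Ratios between libraries gave whole reads for 100% of genes above 0 (tolerance 0.001 reads). The absolute scale of reads rests on annotated coding lengths (GENCODE M21, GRCm38), which equalled the length behind the RPKM for 56.0% of genes with mean RPKM of at least 1. Symbols matched for 20991 of 21090 genes. The values were tested as log2(RPKM + 1) for 10871 genes with mean RPKM of at least 1, by limma 3.58.1 (R 4.3.3) with an intensity trend, 2 knockouts against 2 controls, without covariates, with Benjamini-Hochberg adjustment over all tested genes and a threshold of 0.05. The fit was tested on simulated data. Counts of genes at least 2-fold lower or higher used RPKM, and the pairs within a group used log2(RPKM + 1). The GC and length correction used lowess within each library. Other steps used Python 3.11.15 with statsmodels 0.14.6 (lowess), scipy 1.17.1 (intervals), pandas 2.3.3 and numpy 2.4.6. Promoters were RefSeq sequences, and 2 of the 10 genes, Tgfb3 and Tgfbr3, had no entry.

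The genes and the lists were chosen with earlier results of these data known. Named genes were the 10 Tgf-beta genes, S100a4, from each list the genes at least 2-fold apart in all 4 pairs and the 3 with the largest differences, and the 3 most alike genes for Tgfb2 and Tgfbr1, those with the largest differences. Snai1 was named beside these because it is in the study's score. Alternatives were another pseudocount, scaling, filter, prior or fold, voom on recovered reads, GC and length correction, and leaving out each library.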

Additional observations from a re-analysis of the deposited data

Results flagged for a closer look

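Smad7 lay on opposite sides of the controls in the knockouts. It was 4.29 RPKM in the exon 3 knockout, below both controls (6.9 and 8.02), and 8.79 RPKM in the exon 2 knockout, above both, a difference of 0.89 between the knockouts on the log2(RPKM + 1) scale. The counting interval of the exon 2 value (7.77 to 9.94) covers the vector control value of 8.02. With 1 library per line this difference was not tested. Of 10871 tested genes, 857 (7.88%) also lay below both controls in one knockout and above both in the other.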

How the results depend on the processing

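No paired analysis was possible because the labels give no replicate numbers that the lines share. None of the 10 Tgf-beta genes passed the adjusted test in limma under any alternative. The number of all genes that passed, 2, was 1 with a pseudocount of 0.1, 1 after quantile normalization, 0 after median-ratio scaling, 0 with no filter, 0 after GC and length correction, 0 by limma voom, 32 at mean RPKM of at least 5 and 285 with a robust prior. At an unadjusted p under 0.05 the 4 settings with 0 gave 2177 (median-ratio scaling), 2132 (no filter), 1410 (GC and length correction) and 2043 (voom) genes. Leaving out a library gave 3 to 788 (451 without the vector control, 788 without the parental line, 4 without the exon 3 knockout). These fits leave 1 library in a group, whose spread is taken from the other group. Quantile normalization moved the median difference of all genes from -0.078 to 0.04.

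At mean RPKM of at least 5, Tgfb2 and Tgfbr1 were not tested, which left 1 gene lower in both knockouts and 0 at least 2-fold lower. That last count was also 0 after quantile normalization, after GC and length correction and at 3-fold, and 2 at 1.5-fold. Genes higher in both knockouts numbered 2 after median-ratio scaling and 0 after GC and length correction. Leaving out a library gave 4 to 6 lower (5 without either control, 6 without the exon 2 knockout), 1 to 3 higher (3 without the parental line or the exon 3 knockout) and 1 to 3 at least 2-fold lower (2 without the vector control, 3 without the exon 3 knockout), with fewer pairs to satisfy. Between the controls 2 genes were at least 2-fold apart after quantile normalization, and between the knockouts 2 with a pseudocount of 0.1 and 3 after GC and length correction.

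Directions turned with the library left out: Tgfb3 ran from -1.25 to 0.01 (without the exon 2 knockout), Tgfbr2 from -0.69 to 0.34 (without the parental line, 0.29 without the exon 3 knockout), Tgfbr3 from -0.52 to 0.29 (without the parental line, 0.02 without the exon 3 knockout) and Smad7 from -0.67 to 0.21 (without the exon 3 knockout). Col1a1 ran from -4.17 to 2.23 (without the parental line), Krt18 from -1.36 (without the vector control, -0.06 without the exon 3 knockout) to 1.75 and Krt8 from -0.07 (without the vector control) to 1.23. Without turning, Smad2 ran from -0.88 to -0.11, Tgfb1 from 0.07 to 0.53, Smad3 from 0.07 to 0.43 and Smad4 from -0.25 to -0.1. Tgfbr3 also turned after GC and length correction (0.05) and Smad7 after quantile normalization (0.08). With a robust prior Itgav, Trim33, Smad5 and Cd68 passed. Tgfb2 stayed between -1.56 and -0.86 in the alternatives that tested it, and Tgfbr1 between -1.25 and -0.08. The causes were not tested. For Tgfbr1, 29 to 95 reads per library limit the precision.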

Other observations

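Some genes around the receptors were higher in both knockouts than in both controls. These were 2 of 13 tested genes of latency and activation and 2 of 16 coreceptors and regulators. Among Smad partners and repressors it was 1 of 16. Of all tested genes 21.9% were, so the genes named here are no trend of the lists. The genes named below were chosen after their values were seen, and none passed the adjusted test in limma. Sik1, a kinase induced by Tgf-beta that takes part in receptor turnover, was at 13.4 RPKM in parental cells, 7.08 in vector cells, 17.7 after the exon 3 edit and 18.5 after the exon 2 edit (log2 difference 0.82, adjusted p = 0.244). Ltbp4, a latent Tgf-beta binding protein, was at 7.33, 4.49, 8.79 and 13.3 RPKM in the same order (0.81, adjusted p = 0.259). Itgb5, an integrin chain that pairs with Itgav, was at 101, 61.8, 125 and 132 RPKM (0.69, adjusted p = 0.269), whereas Itgav itself was lower in both knockouts.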
